A study of Mus musculus with 24 samples.

Results

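The 10 genes described here encode small GTPases: Rasd1, Rasl11a, Rasl11b, Rem2, Rhob, Rhou, Rhoj, Rnd1, Rnd3 and Arl4d. They were chosen by symbol from the log2 ratios and channel signals of these same arrays, with the corticosterone results known, so all their values, those of control mice included, are given as a description with no test. They make up 10 of the 23787 named genes on the array and take 13 of its 56605 distinct non-control probes, and for genes with more than 1 probe the brightest stands for the gene. The hippocampus was taken from 48 male Swiss-Webster mice, aged 12 weeks at the start and then kept in single cages for 21 days before the treatment. Of these, 24 mice drank corticosterone at 100 µg/ml through the 12 h dark phase, dissolved with 0.45% hydroxypropyl-β-cyclodextrin, and their controls, which were brothers of treated mice, drank the vehicle. Mice were killed in hour 1, hour 5 or hour 9 of the following light phase, with 8 treated and 8 control animals at each hour. Each of the 24 arrays held 1 control animal labelled with Cy3 and 1 treated animal labelled with Cy5, without pooling. The dyes were never swapped, so a constant dye difference adds to every corticosterone to control ratio, cancels when a ratio is compared between hours, and is absent from comparisons among control animals. Between 60.8% and 67.2% of features were well above background in Cy3, and between 64.0% and 73.5% in Cy5, with 0 saturated spots. All 13 member probes were well above background on 8 of 8 arrays in every group, and the 8 arrays per hour limit the precision. The name stress-responsive did not cover all 10 genes: no stressor was applied, and 5 of them (Rasl11a, Rhoj, Rnd1, Rnd3 and Rem2) passed the threshold at no hour by their brightest probe in the main fit.

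Small GTPases are molecular switches that are active while bound to GTP and inactive once it is hydrolysed to GDP. Guanine nucleotide exchange factors turn them on and GTPase activating proteins turn them off. In neurons, Ras proteins pass signals from surface receptors and Arf proteins steer membrane traffic. Several members depart from the plain switch and are set more by how much protein is made: Rnd1 and Rnd3 hardly hydrolyse GTP, and Rhou exchanges its nucleotide quickly. Corticosterone, the main glucocorticoid of the mouse, acts through the receptors encoded by Nr3c1 and Nr3c2, which bind DNA and change transcription. Rasd1, also called Dexras1, was named for its induction by the synthetic glucocorticoid dexamethasone.

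The tissue carried the markers of hippocampal neurons. All 8 neuronal markers were well above background in every group, and their signals summed to between 146207 and 169031 (median 159159) in controls of the first hour and to between 151218 and 171997 (median 164583) in treated mice. Signals are normalized intensities in arbitrary units. Choroid plexus markers summed to a median of 1373 in the same controls, and 4 of the 6 had a mean intensity of at least 50. The samples are bulk tissue, so fewer cells of a type and less RNA per cell cannot be told apart.

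At the first hour after treatment, 6 of the 13 member probes were higher in corticosterone-treated mice past the threshold (limma, adjusted p under 0.05 over all 56605 probes) and 0 were lower. The higher ones were Arl4d, Rhob, Rasl11b, Rasd1, Rhou and the dimmer of the Rhoj probes. Over all probes, 17.5% passed at that hour, 8.84% as higher and 8.67% as lower. At the fifth hour 2 of 13 passed, Rasl11b and Rhob, both higher, beside 18.1% of all probes (8.62% higher and 9.47% lower). At the ninth hour 1 of 13 passed, Rasd1, and it was lower, beside 14.0% of all probes (7.01% higher and 6.97% lower). Since these contrasts were in view when the genes were chosen, nothing is read from the counts. With 1 probe a gene, 5 of the 10 genes were higher at the first hour, where 10.3% of all genes were higher and 10.4% lower. The count was 2 of 10, both higher, at the fifth hour (9.90% of genes higher, 10.9% lower) and 1 of 10, lower, at the ninth (8.37% higher, 7.21% lower). The median log2 ratio of the 10 genes was 0.26, 0.18 and 0.09 at the 3 hours, and that of all genes was -0.0035, -0.0034 and 0.0061. The signals of the 8 treated and 8 control mice did not overlap for 3 genes at the first hour (Arl4d, Rhob and Rasl11b), which held for 1.58% of all probes. No member was without overlap at the fifth hour (1.04% of probes) or at the ninth (1.65%).

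**Figure D1:**
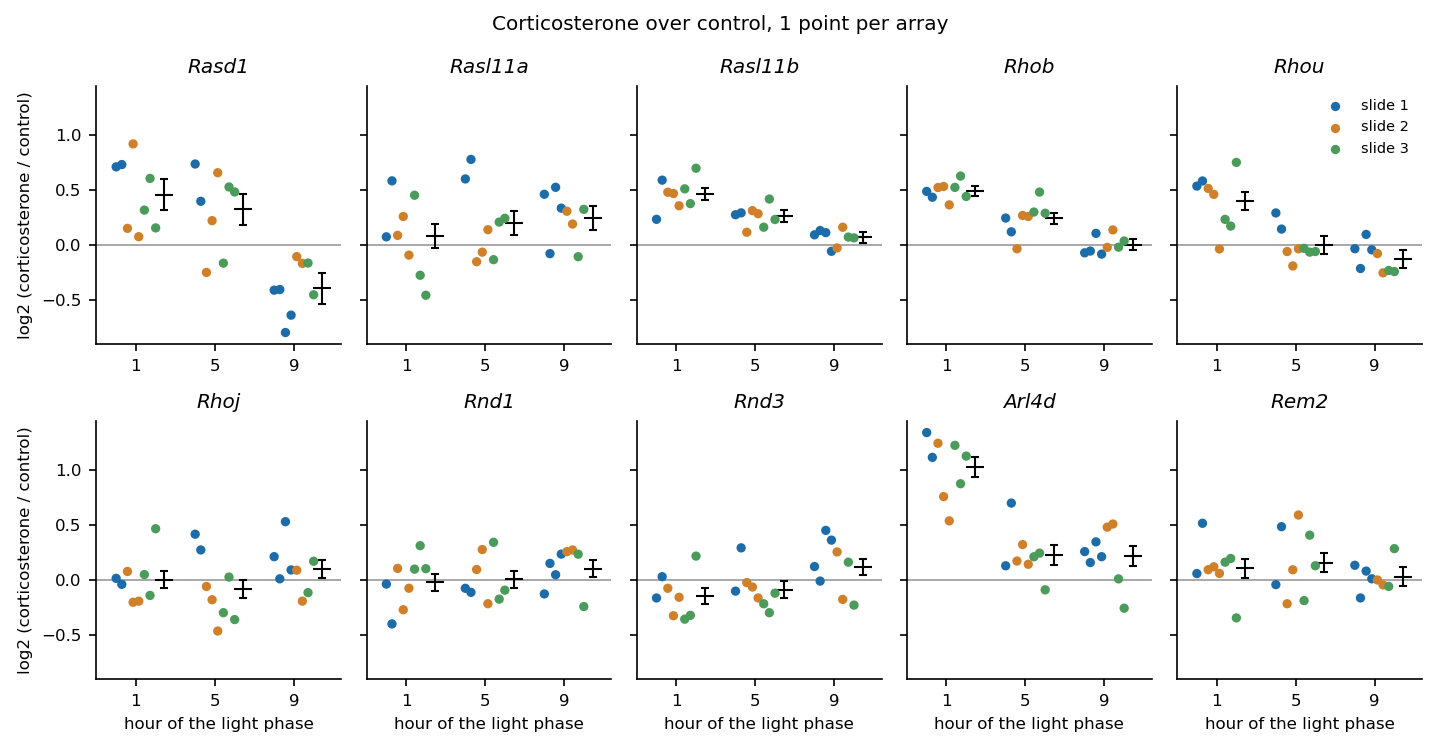
Log2 ratio of corticosterone over control on each of the 24 arrays for the 10 genes at hours 1, 5 and 9 of the light phase, coloured by slide, with the black bar giving the fitted log2 fold change and its SE (8 arrays an hour). Arl4d is highest at the first hour (1.03) and lies near 0.22 at the ninth, while Rasd1 goes from 0.46 to -0.39.

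Arl4d, Rhob and Rasl11b are the members whose treated and control mice separated completely at the first hour, and their promoter windows are shown for that reason. Windows of 250 bases before to 50 bases after the transcription start came from RefSeq (build GRCm38.p6). The set of windows used here covered 8 of the 10 genes. It held no window for Rasd1 and Rnd1, so their promoters were not searched. Searched on both strands were AGAACA, any 3 bases, TGTTCT, a palindromic glucocorticoid response element present in 0.00913% of the 32851 windows of all genes, its core AGAACA (19%), the cyclic AMP response element TGACGTCA (1.79%), its core TGACG, which lies within it (20.8%), and the E-box CACGTG (7.15%). Capitals mark the matches, which are descriptions of the sequence and not shown to be bound. The window of Arl4d lies on the plus strand at chr11:101665291-101665590, and holds TGACGTCA with its first base at -26, counted from the transcription start. It also holds TGACG on the minus strand at -228. The window of Rhob lies on the minus strand at chr12:8499960-8500259, and that of Rasl11b on the plus strand at chr5:74195076-74195375. These letters occurred in neither.
Arl4d: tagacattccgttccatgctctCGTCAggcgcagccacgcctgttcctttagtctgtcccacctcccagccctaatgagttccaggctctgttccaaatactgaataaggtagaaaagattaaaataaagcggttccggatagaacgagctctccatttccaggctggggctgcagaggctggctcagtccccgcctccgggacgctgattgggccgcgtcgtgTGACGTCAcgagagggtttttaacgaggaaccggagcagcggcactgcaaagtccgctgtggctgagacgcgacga
Rhob: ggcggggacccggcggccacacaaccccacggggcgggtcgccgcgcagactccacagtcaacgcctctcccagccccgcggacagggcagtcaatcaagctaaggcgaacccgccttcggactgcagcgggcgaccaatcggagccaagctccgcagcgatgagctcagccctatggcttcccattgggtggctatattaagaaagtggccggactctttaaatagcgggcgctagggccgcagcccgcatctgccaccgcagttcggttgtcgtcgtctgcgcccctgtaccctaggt
Rasl11b: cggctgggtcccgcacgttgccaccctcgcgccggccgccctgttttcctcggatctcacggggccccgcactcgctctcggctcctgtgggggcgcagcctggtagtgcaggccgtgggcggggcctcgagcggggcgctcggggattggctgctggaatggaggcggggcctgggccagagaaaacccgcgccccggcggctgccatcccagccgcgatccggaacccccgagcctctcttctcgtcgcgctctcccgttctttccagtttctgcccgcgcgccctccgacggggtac
Among the other windows, that of Rasl11a held TGACG at -89 on the minus strand and that of Rem2 held AGAACA at -113 on the minus strand. The windows of Rhou, Rhoj and Rnd3 held no match.

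Arl4d, an Arf-like protein that brings cytohesin exchange factors to the plasma membrane, had the largest ratio of the 10 genes. At the first hour its signal (probe A_55_P2057528) ran from 157 to 283 with a median of 202 in control mice. In treated mice it ran from 332 to 618 with a median of 403. Every treated mouse of the first hour was above every mouse of the other 5 groups, whose highest signal was 283. The log2 ratio was 1.03 (SE 0.090), from 0.54 to 1.34 over the 8 arrays with a median of 1.12, a fold of 2.04. At the fifth hour the signals of treated mice were 194, 211 and 279 (lowest, median, highest) against 156, 189 and 224. The log2 ratio was 0.23 (SE 0.090), higher on 7 of 8 arrays. Ninth-hour signals were 176, 233 and 248 in treated and 151, 204 and 223 in control mice. The ratio was 0.22, again higher on 7 of 8 arrays. In the main fit neither hour passed the threshold, but both did, as higher, under normalization by A values alone, with no normalization between arrays, in the deposited log2 values and with a separate fit for each hour, and the fifth hour did so also from the scanner software's processed signals.

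In order of median signal, Arl4d ran from treated mice of the first hour to treated mice of the ninth, treated mice of the fifth, controls of the ninth, controls of the first and controls of the fifth. All neighbours after the first place overlapped. The arrays lay on 3 slides, each with arrays of every hour. Within slides 1, 2 and 3 the mean log2 ratio at the first hour was 1.23, 0.85 and 1.08. At the ninth hour it was 0.25, 0.50 and -0.12, so slide 3 had the other sign, and without it the ratio was 0.33 and passed. With slide as a block the member counts stayed at 6, 2 and 1. Its close relatives Arl4a and Arl4c, named here after their values were seen, had first-hour log2 ratios of 0.01 (adjusted p = 0.969) and 0.10 (adjusted p = 0.288), higher on 3 and 6 of 8 arrays.

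**Figure D2:**
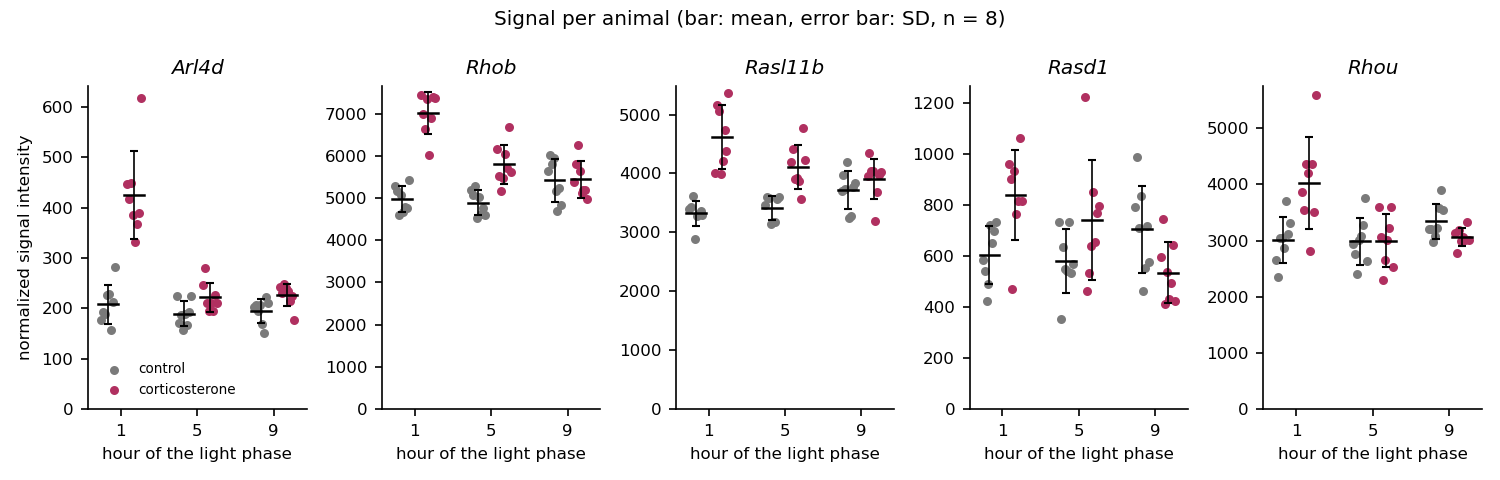
Normalized signal (arbitrary units) of Arl4d, Rhob, Rasl11b, Rasd1 and Rhou in each animal by hour of the light phase, control against corticosterone, with mean and SD (n = 8 a group). Treated mice of the first hour lie above all controls of that hour for Arl4d (332 to 618 against 157 to 283), Rhob (6027 to 7432 against 4609 to 5419) and Rasl11b (3995 to 5361 against 2882 to 3624).

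Among the Ras-like members, Rasl11b and Rasd1 were both higher in treated mice at the first hour, and Rasd1 was lower at the ninth. Rasl11b is a Ras-like protein without the lipid anchor at its end. Its signal (probe A_51_P293938) at the first hour was 2882, 3339 and 3624 (lowest, median, highest) in controls and 3995, 4554 and 5361 in treated mice. The groups did not overlap, and the log2 ratio was 0.47 (SE 0.054), between 0.24 and 0.70 over the 8 arrays, a fold of 1.38. At the fifth hour the signals were 3147, 3509 and 3598 against 3566, 4055 and 4767. The groups overlapped narrowly, yet the ratio of 0.26 was higher on 8 of 8 arrays. For the ninth hour they were 3250.0, 3751 and 4195 in controls and 3198, 4001 and 4354 in treated mice. The ratio was then 0.07, higher on 6 of 8. The medians fell in the order treated at the first, the fifth and the ninth hour, then control at the ninth, the fifth and the first hour, with every pair of neighbours overlapping. The 3 slides gave 0.41, 0.44 and 0.53 at the first hour, 0.29, 0.24 and 0.27 at the fifth, and 0.07 on each at the ninth.

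Rasd1 binds the adaptor of neuronal nitric oxide synthase and has been linked to iron uptake. Its ratio had opposite signs at the first and ninth hours. At the first hour its signal (probe A_52_P496726) was 424, 620 and 732 in controls and 472, 860.3 and 1063 in treated mice. The groups overlapped through 1 treated animal at 472, and the log2 ratio was 0.46 (SE 0.14), higher on 8 of 8 arrays. At the fifth hour it was 0.33, higher on 6 of 8, with signals of 352, 559 and 735 against 465, 713 and 1224. It did not pass there in the main fit, yet passed as higher with no normalization between arrays, with limma on log ratios and in the deposited values. At the ninth hour the signals were 464, 716 and 987 in controls and 411, 516 and 748 in treated mice. The ratio was -0.39 (SE 0.14), lower on 8 of 8 arrays, a fold of 0.764, and it did not pass with offset 0 for p or from the processed signals. All 6 groups overlapped, and the medians ran from treated at the first hour through control at the ninth, treated at the fifth, control at the first and control at the fifth to treated at the ninth. Slides 1, 2 and 3 gave 0.72, 0.39 and 0.36 at the first hour and -0.56, -0.13 and -0.30 at the ninth. Without slide 1 the values were 0.37 and -0.22, without slide 3 they were 0.52 and -0.42, and neither hour then passed the threshold.

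Rasl11a, linked to transcription of ribosomal RNA genes, and Rem2, which holds back voltage-gated calcium channels through their beta subunits, passed at no hour in the main fit. The log2 ratio of Rasl11a (A_51_P340699) was 0.08, 0.21 and 0.25 over the hours (SE 0.11), higher on 5, 5 and 6 of 8 arrays, and that of the ninth hour passed as higher with no normalization between arrays. Its signal had group medians between 196 and 244, with single animals from 148 to 353. On slide 1 alone the ratio of the fifth hour was 0.69, against -0.02 and 0.11 on the others. The log2 ratio of Rem2 (A_51_P191909) was 0.11, 0.16 and 0.03 (SE 0.087), higher on 7, 5 and 5 of 8. Its group medians lay between 387 and 475, and animals of all groups overlapped.

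Rhob and Rhou were both higher in treated mice at the first hour. Rhob sits on endosomes, steers receptor traffic and is an immediate-early gene. Its signal (A_55_P2820752) at the first hour was 4609, 4932 and 5419 in controls and 6027, 7179 and 7432 in treated mice. All treated animals were above all controls, and the log2 ratio of 0.49 (SE 0.048) varied little, from 0.37 to 0.63, a fold of 1.41. At the fifth hour signals of 4532, 4902 and 5284 stood against 5172, 5659 and 6674, and the ratio of 0.24 was higher on 7 of 8 arrays. For the ninth hour they were 4701, 5441 and 6026 against 4974, 5283 and 6252, and the ratio was 0.01, higher on 3 of 8. The order of medians was treated at the first hour, treated at the fifth, control at the ninth, treated at the ninth, control at the first and control at the fifth, neighbours overlapping. Within slides 1, 2 and 3 the ratio was 0.46, 0.48 and 0.53 at the first hour and 0.19, 0.17 and 0.36 at the fifth. Without slide 3 the ratio of the fifth hour was 0.18 and did not pass.

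Rhou, a Wnt-induced relative of Cdc42, passed at the first hour and at neither later hour. Its signal (A_51_P227392) was 2360, 3048 and 3711 in controls and 2813, 4036 and 5590 in treated mice of that hour. The groups overlapped, and the log2 ratio was 0.40 (SE 0.082), from -0.03 to 0.75 and higher on 7 of 8 arrays. At the fifth hour, with control signals of 2398, 2979 and 3756 and treated signals of 2307, 3041 and 3604, the ratio was 0.0032, higher on 2 of 8. The ratio at the ninth hour was -0.12, higher on 1 of 8, with signals of 2979, 3217 and 3904 against 2775, 3037 and 3333. Apart from treated mice of the first hour, group medians lay between 2979 and 3217. The slides gave 0.56, 0.32 and 0.39 at the first hour, and 0.22, -0.09 and -0.05 at the fifth.

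Rhoj, an endothelial small GTPase of vessel growth, had probes that differed. The brighter (A_66_P106113) gave log2 ratios of 0.01, -0.08 and 0.10 (SE 0.080), higher on 4, 3 and 6 of 8 arrays. The dimmer (A_52_P592466) gave 0.27 at the first hour (SE 0.080), higher on 8 of 8, with signals of 126, 152 and 161 against 149, 172 and 226. At the later hours it gave 0.06 and 0.15, higher on 4 and 6 of 8. Over the 24 arrays the log2 ratios of the 2 probes correlated with r = 0.34. Within slides the dimmer probe gave 0.16, 0.28 and 0.33 at the first hour, and it did not pass with slide 2 (0.26) or slide 3 (0.23) left out. The size of the Rhoj ratio at the first hour thus differed between its probes.

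Rnd1 and Rnd3, which stay bound to GTP and oppose RhoA, showed no call at any hour. Rnd3, an inhibitor of the kinase encoded by Rock1, had log2 ratios of -0.14, -0.08 and 0.12 (A_51_P284946, SE 0.073), higher on 2, 1 and 5 of 8 arrays. Its dimmer probe (A_52_P392456) gave -0.11, -0.19 and -0.01, and the probes correlated with r = 0.18. That probe was lower past the threshold at the fifth hour under 5 alternatives, among them no background correction and the filter on intensity. Rnd1, which acts through plexins, had -0.02, 0.01 and 0.11 (A_51_P111164, SE 0.077), higher on 4, 3 and 6 of 8. Its dimmer probe (A_55_P2054897) gave 0.03, -0.02 and 0.18, and here r was 0.67. Group medians ran from 617 to 711 for Rnd3 and from 933 to 1086 for Rnd1, with all groups overlapping. The fellow member Rnd2, named after its values were seen, had 0.16 at the first hour (adjusted p = 0.0727), higher on 6 of 8.

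Over the light phase the 5 genes that were higher at the first hour had smaller or negative ratios. The corticosterone effect was lower at the ninth than at the first hour past the threshold for 5 of 13 member probes, Rasd1, Rasl11b, Rhob, Rhou and Arl4d, beside 0.827% of all probes and 1.45% of genes. These contrasts rest on the ratios that chose the genes and are likewise a description. Between those hours the log2 ratio differed by -0.85 (SE 0.20) for Rasd1 and by -0.81 (SE 0.13) for Arl4d. It was -0.53 (SE 0.12) for Rhou, -0.49 (SE 0.068) for Rhob and -0.40 (SE 0.076) for Rasl11b. For the other genes it lay between -0.08 (Rem2) and 0.26 (Rnd3). From the first to the fifth hour only Arl4d passed, 1 of 13 probes beside 0.0389% of all, with -0.80. Between the fifth and ninth hours 0 of 13 passed in limma, beside 0.0830%. In that interval the change was -0.01 for Arl4d, -0.12 for Rhou, -0.19 for Rasl11b, -0.24 for Rhob and -0.72 for Rasd1.

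Arl4d thus had its change before the fifth hour, with -0.80 and then -0.01. Rhou had the larger part before that hour (-0.40) and a smaller part after it (-0.12). Rhob (-0.25 and -0.24) and Rasl11b (-0.20 and -0.19) had similar values in both intervals. Rasd1 had -0.13 before the fifth hour and -0.72 after it. Of these values only that of Arl4d before the fifth hour passed the threshold, so the others are not placed in an interval by a call. These shapes were not tested against each other. Within treated mice alone, the log2 difference between the ninth and the first hour was -0.89 for Arl4d, -0.65 for Rasd1, -0.37 for Rhou, -0.37 for Rhob and -0.24 for Rasl11b. Leaving out slide 1 took Rasd1 (-0.59) and Rhou (-0.55) below the threshold for the first against the ninth hour. Leaving out slide 3 took Rasd1 (-0.94), Rhou (-0.50) and Rasl11b (-0.36) below it.

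**Figure D3:**
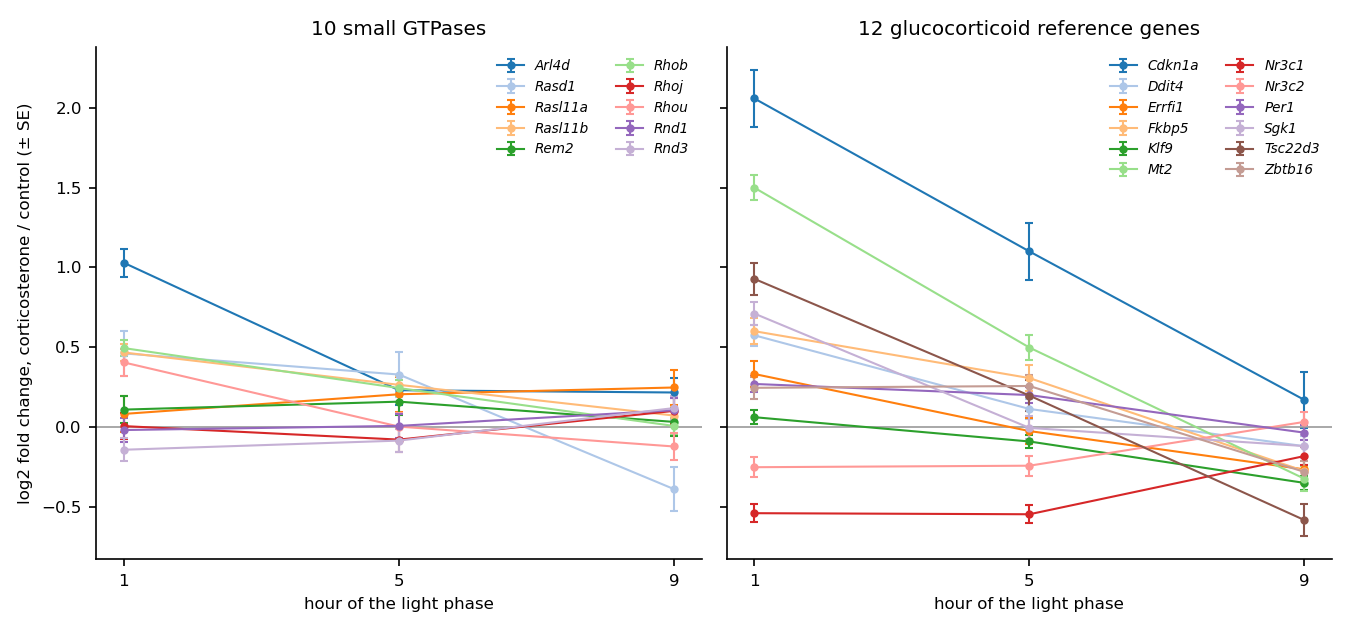
Fitted log2 fold change of corticosterone over control with its SE (8 arrays an hour) across hours 1, 5 and 9 for the 10 members and, in the second panel, for 12 glucocorticoid reference genes. Arl4d goes from 1.03 to 0.23 and 0.22, Rasd1 from 0.46 to 0.33 and -0.39, and among the reference genes Tsc22d3 goes from 0.93 to 0.20 and -0.58.

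The control signals at the 3 hours are among the values that chose the genes, so the differences between hours in control mice are a description too. In limma 0 of the 13 probes passed, and nothing is read from this count. It held for the ninth against the first hour (0.537% of all probes and 0.837% of genes passed), the fifth against the first (0.00530%) and the ninth against the fifth (0.0336%). The count was also 0 with the control channels fitted alone. Between the first and ninth hours the log2 difference of Rasl11b was 0.16 (SE 0.063). Rhob differed by 0.12 (SE 0.056) and Rhoj by -0.19 (SE 0.094). For Rasd1 the difference was 0.20 and for Arl4d -0.08.

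Between the fifth and ninth hours of control mice Rhoj gave -0.32 and Rhob 0.15. Within slides 1, 2 and 3 the ninth minus the first hour was 0.19, 0.01 and 0.19 for Rasl11b. For Rasd1 it was 0.55, -0.07 and -0.11, so its sign rested on slide 1. For Arl4d it was 0.14, -0.43 and 0.03, so its sign rested on slide 2. The controls of the first hour also enter the first-hour ratios.

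**Figure D4:**
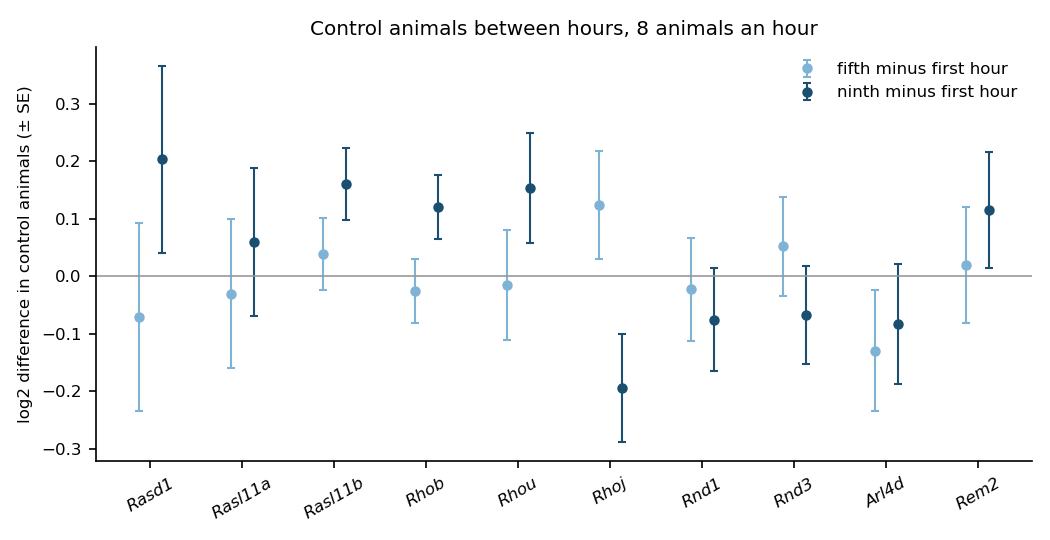
Log2 difference in control mice for the 10 genes, the fifth minus the first hour and the ninth minus the first hour, with SE (8 mice an hour). For the ninth minus the first hour the values run from -0.19 (Rhoj) to 0.20 (Rasd1).

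Array by array, the log2 ratios of the members that were higher at the first hour correlated, and less so within hours. Over 24 arrays and 45 pairs of genes, the log2 ratios of Rasl11b and Rhob correlated with r = 0.83, and with r = 0.32 once the mean of each hour was taken out. Rhou and Arl4d gave 0.80 and then 0.46. Rasd1 and Rhob gave 0.75 and 0.35, and Rhob and Arl4d 0.67 and 0.02. Rhou and Rhoj had a larger r within hours, 0.68 after 0.34, while Rasl11a and Rem2 went from 0.56 to 0.61. Rnd1 and Rem2 ran opposite, with -0.64 and -0.63. These are descriptions without a test, over arrays that share slides and hours.

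For each member, the genes with the most similar log2 ratios over the 24 arrays were searched among 15405 others of mean intensity 50 or more. Nearest to Arl4d were Rcsd1 (r = 0.92, and 0.82 with hour means removed) and Nfkbia (0.90 and 0.67). Nearest to Rhou were Pdk4 (0.90 and 0.74), a kinase that inhibits pyruvate dehydrogenase, and Arrdc2 (0.90 and 0.69). Rhob was closest to Gpt2 (0.91 and 0.64) and Ramp2 (0.89 and 0.51). Rasl11b was closest to Ddit4 (0.90 and 0.63), an inhibitor of mTOR signalling, and Rnf165 (0.87 and 0.63). For Rasd1 they were Ip6k2 (0.90 and 0.72) and B4galt4 (0.88 and 0.73). The corticosterone ratio of Pdk4 was 0.85, -0.02 and -0.03 over the hours, like the course of Rhou. The matches of the remaining 5 genes had lower r over all arrays, but kept it with hour means removed. They were Elf1 (0.86 and 0.82) and Rassf3 (0.86 and 0.84) for Rnd3, Atl1 (0.83 and 0.84) and Paics (0.81 and 0.80) for Rasl11a, and Orai2 (0.81 and 0.83) and Prickle2 (0.80 and 0.82) for Rem2. For Rhoj they were Ppil3 (0.81 and 0.80) and Fstl5 (0.80 and 0.83), and for Rnd1 Prcd (0.76 and 0.76) and Epha8 (0.74 and 0.75).

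Other small GTPases were called lower more often than higher at the first and the fifth hour. Of 75 such genes, 69 with mean intensity of at least 50, 22 passed at the first hour (8 higher, 14 lower), 27 at the fifth (8 higher, 19 lower) and 22 at the ninth (11 higher, 11 lower). Lower calls outnumbered higher ones at the first and the fifth hour under every scaling alternative, while at the ninth the balance turned with the setting, from 11 higher and 8 lower (normalization by A values alone) to 11 higher and 12 lower (separate fits per hour). Their median log2 ratios were -0.05, -0.06 and -0.01. The 3 counts were 16, 18 and 7 without slide 1, 17, 15 and 11 without slide 2, and 11, 10 and 13 without slide 3. Between the first and ninth hours the effect differed for 1 of 75, Rhoq, and 10 had an unadjusted p under 0.05. Of all 23787 genes, 4922 passed at the first hour (2457 higher, 2465 lower). At the fifth hour 4954 passed (2356 higher, 2598 lower), and at the ninth 3707 (1991 higher, 1716 lower). These counts of all genes also stand beside the counts of the families and lists below.

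Calls among these 75 went both ways at the first hour. Rhobtb1 fell by 0.39 (SE 0.066, adjusted p = 1.69e-05, lower on 8 of 8 arrays). Rhoc, close in sequence to Rhob, fell by 0.26 (adjusted p = 0.000218, lower on 8 of 8). Rhoa was higher in treated mice by 0.23 (limma, adjusted p = 3.49e-05, higher on 7 of 8). Its ratio was 0.21 and 0.24 at the later hours, and the part of a constant dye difference in it was not tested. Rhoq fell by 0.19 (adjusted p = 0.00258, higher on 1 of 8), a call lost without slide 3 (-0.16), and its change by the ninth hour was 0.28 (adjusted p = 0.0166). Rac1 and Cdc42, named after their values were seen, had -0.06 (adjusted p = 0.232) and -0.08 (adjusted p = 0.367), higher on 3 and 2 of 8 arrays.

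Of 31 other Ras genes, 9 passed at the first hour (2 higher, 7 lower), 13 at the fifth (2 and 11) and 11 at the ninth (4 and 7). Rap1a, a switch for cell adhesion, was lower in treated mice at all hours, on 8 of 8 arrays each time. Its log2 ratios were -0.46 (limma, adjusted p = 8.02e-10), -0.46 and -0.43. A constant dye difference would add equally at each hour, and its part in these ratios was not tested. Mras fell by 0.33 (adjusted p = 0.000193, lower on 7 of 7 arrays with a value), a call lost without slide 3 (-0.25). Hras rose by 0.25 (adjusted p = 7.67e-05, higher on 7 of 8). Rasl10a fell by 0.25 (adjusted p = 0.0428, higher on 1 of 8), a call lost with any 1 slide left out (-0.18, -0.25 and -0.32). Rasd2, the nearest relative of Rasd1 and named after its values were seen, had -0.01 at the first hour (adjusted p = 0.965, higher on 5 of 8) and rose by 0.20 at the ninth (adjusted p = 0.00952, higher on 7 of 8).

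Of 26 other Arf and Arl genes, 6 passed at the first hour (3 higher, 3 lower), 9 at the fifth (3 and 6) and 7 at the ninth (4 and 3). Arf5 rose by 0.21 (adjusted p = 3.83e-05, higher on 8 of 8). Arl16 rose by 0.19 (adjusted p = 0.00149, higher on 8 of 8; 0.17 and not passing without slide 3). Arl6 fell by 0.24 (adjusted p = 0.000908, lower on 8 of 8) and Arl8b fell by 0.22 (adjusted p = 0.000612, lower on 8 of 8; -0.20 and not passing without slide 2). In control mice 1 of the 75 genes passed between the first and ninth hours, Arf6, named after its values were seen, with 0.31 (SE 0.071, adjusted p = 0.0158).

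**Figure D5:**
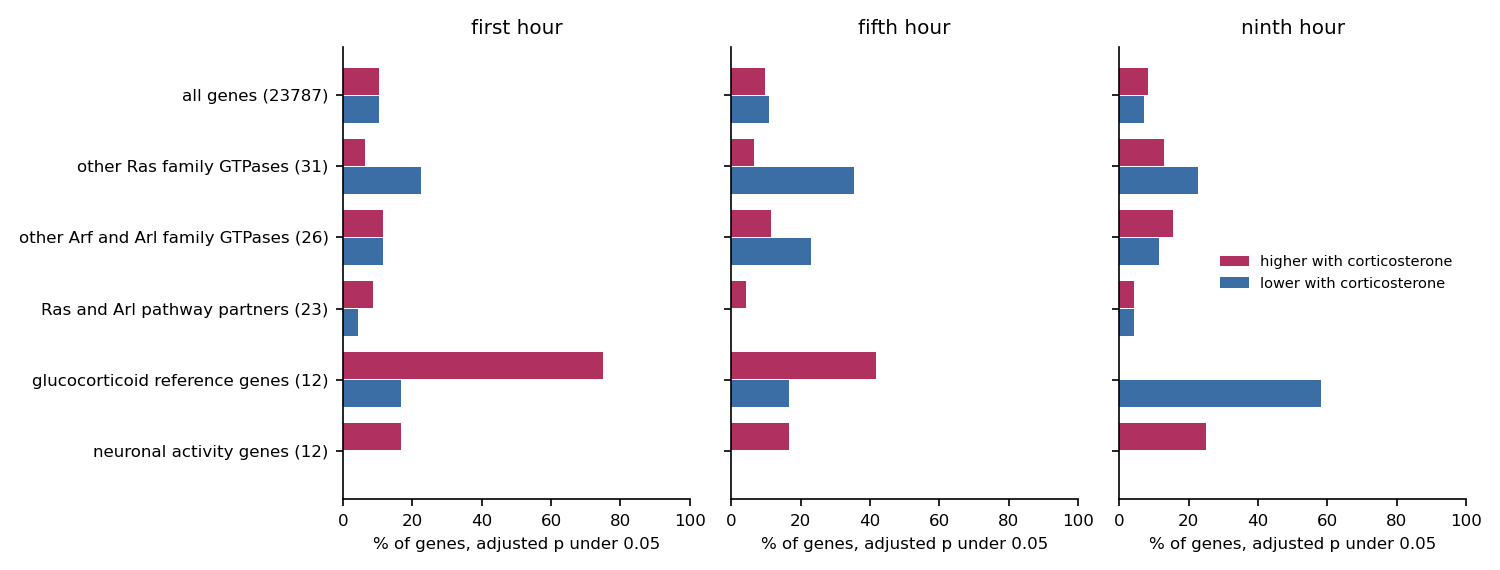
Percent of the genes of each list shown that passed the threshold as higher or as lower in treated mice at hours 1, 5 and 9, with all 23787 genes for comparison. At the first hour 5 of the 10 members were higher and 0 lower, against 8 higher and 14 lower of 75 other small GTPase genes.

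Genes that regulate small GTPases or act after them were called in both directions. Net1, an exchange factor for RhoA, rose by 0.44 at the first hour (adjusted p = 0.000754, higher on 8 of 8). Its change by the ninth hour was -0.60 (adjusted p = 0.0109). Cdc42ep1, a Cdc42 effector, fell by 0.50 (adjusted p = 3.88e-06, lower on 8 of 8), with a change of 0.70 by the ninth hour (adjusted p = 3.19e-05). Arhgap5, a GTPase activating protein, was lower in treated mice at all hours, with -0.47, -0.56 and -0.37 (limma, adjusted p = 1.72e-07 at the first hour, lower on 8 of 8). The part of a constant dye difference in these ratios was not tested. Diaph3, a formin, fell by 0.26 (adjusted p = 0.0192, lower on 8 of 8; -0.28 and -0.22, not passing, without slide 2 or slide 3). Rock1, the target of Rnd3, had 0.01 (adjusted p = 0.908, higher on 4 of 8), and Plxnb1 0.07 (adjusted p = 0.212, higher on 5 of 8); both were named after their values were seen.

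Of 23 direct partners of the Ras and Arl members, 3 passed at the first hour (2 higher, 1 lower), 1 at the fifth and 2 at the ninth, beside 4922, 4954 and 3707 of all 23787 genes. At the first hour 8 of the 23 and 8172 of all genes had an unadjusted p under 0.05. Slc11a2, the iron transporter linked to Rasd1, was higher in treated mice by 0.24 (limma, adjusted p = 0.000444, higher on 7 of 8). Its ratio was 0.19 and 0.17 later, and the part of a constant dye difference in it was not tested. In control mice Slc11a2 rose by the ninth hour, with 0.27 against the first (limma, adjusted p = 0.0124). Acbd3, another partner of Rasd1, fell by 0.13 (adjusted p = 0.0190, higher on 1 of 8), a call lost without slide 1 (-0.14) or slide 2 (-0.07). Rasal1, which turns Ras off, rose by 0.17 (adjusted p = 0.0470, higher on 6 of 8), a call lost with any 1 slide left out (0.22, 0.12 and 0.17). Named after their values were seen, Nos1ap had 0.13 (adjusted p = 0.119, higher on 7 of 8), and the Arl4d partner Cyth2 0.04 (adjusted p = 0.516, higher on 6 of 8).

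The glucocorticoid reference genes were mostly higher at the first hour and mostly lower at the ninth. Of 12, 11 passed at the first hour (9 higher, 2 lower), 7 at the fifth (5 and 2) and 7 at the ninth (0 and 7), and no scaling alternative turned these directions. The medians were 0.45, 0.16 and -0.22. The cell cycle inhibitor Cdkn1a rose by 2.06 (SE 0.18, adjusted p = 3.48e-12), with 1.10 and 0.17 later. The metallothionein Mt2 rose by 1.50 (adjusted p = 3.33e-20) and then 0.50, and fell by 0.32 at the ninth hour (adjusted p = 0.00266), a call lost under 3 alternatives (-0.14 by A values, -0.14 with no normalization between arrays and -0.13 in the deposited values) and without slide 1 (-0.27). Tsc22d3 rose by 0.93 (adjusted p = 4.89e-10), was at 0.20 at the fifth hour and fell by 0.58 at the ninth. The kinase Sgk1 rose by 0.71 (adjusted p = 1.25e-10), with 0.0030 and -0.12 after. These 4 were higher on 8 of 8 arrays at the first hour. Rasd1, higher at the first hour and lower at the ninth, past the threshold at both, shared this with Tsc22d3, Mt2, Fkbp5, Errfi1 and Zbtb16, and was the only member below its controls past the threshold there.

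Also at the first hour, Fkbp5, which dampens the glucocorticoid receptor, rose by 0.60 (adjusted p = 1.95e-07), and Ddit4 by 0.58 (adjusted p = 1.96e-09). Errfi1 rose by 0.33 (adjusted p = 0.00183), Per1 by 0.27 (adjusted p = 1.99e-05), all 4 higher on 8 of 8 arrays, and Zbtb16 by 0.25 (adjusted p = 0.00586, higher on 7 of 8). The receptor genes fell, Nr3c1 with -0.54 (adjusted p = 2.26e-10, lower on 8 of 8) and Nr3c2 with -0.25 (adjusted p = 0.00187, higher on 1 of 8). Left without a call were Nr3c2 without slide 3 (-0.20) and Zbtb16 without slide 2 (0.17). Klf9 had 0.06 (adjusted p = 0.287, higher on 5 of 8) and fell by 0.35 at the ninth hour (adjusted p = 2.04e-08, lower on 8 of 8). The ninth-hour effect differed from the first past the threshold for 11 of the 12 genes, lower for 10.

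Rhob is also an immediate-early gene, and other genes that follow neuronal activity were set beside it. Of 12, 2 passed at the first hour, 2 at the fifth and 3 at the ninth, all higher. The synaptic regulator Arc rose by 0.45 (SE 0.13, adjusted p = 0.0115, higher on 7 of 8; 0.29 and 0.46, not passing, without slide 2 or slide 3). Junb was higher in treated mice by 0.38, 0.41 and 0.29 (limma, adjusted p = 0.000263 at the first hour, higher on 8 of 8). The part of a constant dye difference in the Junb ratios was not tested. Between the first and ninth hours the effect differed for 0 of 12 in limma, with 2 at an unadjusted p under 0.05. In control mice Arc fell by 0.64 (adjusted p = 0.0295) and Fos, named after its values were seen, fell by 0.96 (adjusted p = 0.0476) between the first and ninth hours.

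The calls of cell type markers are given beside those of all genes. Of all 23787 genes, 4922 passed at the first hour (2457 higher, 2465 lower), 4954 at the fifth and 3707 at the ninth. Neuronal markers passed in 0 of 8 genes at the first hour in limma, with 0 at an unadjusted p under 0.05, in 2 at the fifth and in 1 at the ninth, all higher. Of 11 endothelial markers, 6 passed at the first hour (1 higher, 5 lower), 6 at the fifth (2 and 4) and 3 at the ninth (2 and 1). Their summed signal at the first hour was 18643, 19164 and 22267 (lowest, median, highest) in controls and 15452, 16100.0 and 18356 in treated mice. At the ninth hour the medians were 18824 and 18225. Flt1, a receptor for vascular endothelial growth factor, fell by 0.61 (adjusted p = 1.47e-08, lower on 8 of 8), while Pecam1 rose by 0.29 (adjusted p = 0.00232, higher on 8 of 8; 0.25 and not passing without slide 2). The junction protein Cldn5 fell by 0.36 (adjusted p = 5.44e-05, higher on 1 of 8) and rose by 0.24 at the ninth hour (0.18 and not passing without slide 1). Tek fell by 0.30 (adjusted p = 0.0225, higher on 2 of 8), a call lost without slide 3 (-0.12). Rhoj is an endothelial gene, and the part of vessel cells in its values was not tested.

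Among oligodendrocyte markers at the first hour, Mobp rose by 0.59, whereas Mag fell by 0.27. Of 6 astrocyte markers 2 passed at the first hour, beside 4922 of all 23787 genes, with Aldh1l1 up by 0.57 and the water channel Aqp4 down, with -0.76. Their summed signal had medians of 30447 in controls and 33440 in treated mice. Such sums, those of the endothelial markers included, weigh bright genes most. The brightest astrocyte marker, named here only for this, was Slc1a3. Of 6 microglial markers 3 fell at the first hour, among them P2ry12 with -0.49 and Aif1 with -0.44. The sum of all 6 had medians of 37577 and 39927. Its brightest gene, named here only for this, was Itgam, so the sum need not follow the dimmer markers. Of 7 pericyte and smooth muscle markers 1 fell, Rgs5, with -0.23, and the sum had medians of 8256 and 8688. Of 6 choroid plexus markers 0 passed in limma and 0 had an unadjusted p under 0.05, and the sum had medians of 1373 and 1253. Without slide 2 the calls of Mag (-0.24), P2ry12 (-0.42), Aif1 (-0.25) and Rgs5 (-0.16) at the first hour were lost. Leaving out slide 3 also ended those of Mag (-0.24) and Rgs5 (-0.26). The part of these cell types in the values of the 10 small GTPase genes was not tested.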

How the data were processed

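Hippocampal RNA of 48 mice was hybridised to 24 2-colour Agilent arrays on 3 slides. The authors deposited scanner output, in which each spot has a mean intensity and a background intensity per channel, not normalized. The authors also deposited a set of log2 ratios, used as an alternative: its column medians lie between 0.00239 and 0.00889, its columns correlate with the log ratios computed here with r from 0.988 to 0.997, which fixes their direction as Cy5 over Cy3, and its normalization between arrays is not given in the sources used here. Background was corrected with normexp (offset 50 for p, 0 for fold changes, SE and signals), followed by loess within arrays (control spots at weight 0) and quantile normalization between arrays. Control spots (3671 of 62976) were removed, spots with an outlier mark were left out (80 to 276 per array), and copies of a probe were averaged (300 probes in 10 copies). Probes were named through the RefSeq gene list by accession without version. Channels were fitted separately in limma (lmscFit, eBayes) with 6 groups, intraspot correlation 0.279 and 4.89 prior degrees of freedom; p-values were adjusted by Benjamini-Hochberg over 56605 probes, at 0.05. A gene was represented by its brightest probe. The fit of separate channels and the fit of log ratios were tested on simulated log2 intensities, and the other steps were not.

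The members and lists were chosen with earlier results of these data known. Named were all members, all glucocorticoid reference genes, up to 4 genes of each other list with the largest first-hour ratio among those past the threshold with intensity of at least 50, and the 2 genes most correlated with each member; genes outside this rule are marked in the text. Some genes and list counts are not reported here. Alternatives were the offset, the background correction, both normalizations, the processed signals, filters on dim probes, log ratios, separate fits per hour, control channels alone, slide as a block, each slide left out or alone, a variance trend, the deposited values and the next brightest probe. R 4.3.3, limma 3.58.1, statmod 1.5.0, the R package data.table (version 1.17.8), jsonlite 2.0.0, Python 3.11.15 and matplotlib 3.10.9 were used.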

Additional observations from a re-analysis of the deposited data

Results flagged for a closer look

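In groups of 8 animals or arrays, 1 value stood far from the other 7, by Dixon's 95% limit for the gap over the range, in 7 of 117 groups of member signals and ratios. Chance alone gives this in about 1 of 20 groups. For Rasd1 the signal of treated replicate 3 at the first hour was 472, with the others from 764 to 1063, and that of control replicate 2 at the fifth hour was 352, with the others from 533 to 735. For Rasl11b control replicate 4 of the first hour was at 2882, with the others from 3282 to 3624. For Arl4d treated replicate 8 of the ninth hour was at 176, with the others from 215 to 248. The brighter Rhoj probe had a log2 ratio of 0.47 in replicate 8 of the first hour, against -0.20 to 0.08 in the others. For Rnd3 replicate 2 of the fifth hour had 0.29, against -0.30 to -0.02. The dimmer Rnd1 probe had a signal of 52.8 in control replicate 6 of the fifth hour, against 71.3 to 84.0.

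The corticosterone effect differed between hours for 5 of the 10 small GTPase genes, where the contrast shares the ratios that chose them and carries no p here. From the first to the ninth hour the log2 ratio of Rasd1 differed by -0.85, that of Arl4d by -0.81, that of Rhou by -0.53, that of Rhob by -0.49 and that of Rasl11b by -0.40. From the first to the fifth hour that of Arl4d differed by -0.80.

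Among the genes of the other lists, the test of the difference between the ninth and the first hour (limma, adjusted p) passed in 15 named genes. It was -1.89 for Cdkn1a (1.29e-06), -1.82 for Mt2 (6.63e-17), -1.51 for Tsc22d3 (1.23e-10), -0.88 for Fkbp5 (6.54e-07) and -0.83 for Sgk1 (1.46e-07). It was -0.69 for Ddit4 (6.54e-07), -0.60 for Errfi1 (0.000817), -0.60 for Net1 (0.0109), -0.53 for Zbtb16 (0.000366), -0.41 for Klf9 (2.49e-06) and -0.31 for Per1 (0.00397). It was positive for Cdc42ep1 with 0.70 (3.19e-05), Cldn5 with 0.60 (2.53e-05), Nr3c1 with 0.36 (0.00544) and Rhoq with 0.28 (0.0166).

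Between the fifth and the first hour the effect differed by -1.0 for Mt2 (1.72e-07), -0.73 for Tsc22d3 (0.00666), -0.72 for Sgk1 (2.50e-05) and -0.46 for Ddit4 (0.0107). Between the ninth and the fifth hour it differed by -0.82 for Mt2 (4.69e-05), -0.78 for Tsc22d3 (0.00240), -0.58 for Fkbp5 (0.00804), -0.54 for Zbtb16 (0.00215), -0.26 for Klf9 (0.0310) and 0.36 for Nr3c1 (0.0236).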

How the results depend on the processing

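Of 105 comparisons of a member count with an alternative, 91 stayed within 1.5 times the main value. At the first hour the 6 member probes became 5 without slide 1, 5 without slide 2 and 4 without slide 3, and were 6 under the other alternatives. The 2 at the fifth hour were 4 with no normalization between arrays, 4 from the scanner software's processed signals, 4 with limma on log ratios, 4 in the deposited log2 values and 1 without slide 3. In the log ratios and the processed signals 1 of the 4, the dimmer Rnd3 probe, was lower. The 1 at the ninth hour, Rasd1, became 0 with offset 0 for p, 0 from the processed signals and 0 without slide 1. The count there was 2 with normalization by A values alone, 3 with no normalization between arrays, 2 in the deposited values and 2 with a separate fit for each hour, through Arl4d and, with 3, Rasl11a. Without slide 3 it was 1, but this was Arl4d and not Rasd1. The 5 probes whose effect differed between the ninth and first hours were 3 without slide 1 and 2 without slide 3. The 22, 27 and 22 other small GTPase genes were 11 at the first hour without slide 3; 15, 10 and 14 at the fifth without slide 2, without slide 3 and with separate fits; and 7, 11 and 13 at the ninth without slides 1, 2 and 3. The cause was not tested, but a fit without a slide has fewer arrays.

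Member log2 fold changes moved by less than the spread between arrays in 1222 of 1231 comparisons. The 9 others were values within 1 slide or of a gene's dimmer probe: Rasd1 at the ninth hour (-0.13 on slide 2), Arl4d at the ninth (0.50 on slide 2, -0.12 on slide 3), Rasl11a (0.69), Rhou (0.22), Rhoj (0.35) and Rnd3 (0.10) at the fifth on slide 1, and Rhoj by its dimmer probe at the first hour (0.27) and in its change by the ninth (-0.12). Other named genes kept their side of the threshold in 2246 of 2397 comparisons; 132 lost and 19 gained it, most losses with a slide left out. No value past the threshold turned its direction, and a change of sign of a value that passed in neither setting was not counted (54 of 1231 for members, 9 of 2397 for the others). The share of higher calls among all probes moved by less than 10 percentage points, but at the fifth hour the balance turned: 4879 higher and 5360 lower became 5505 and 4667 with normalization by A values alone, 5568 and 4272 with no normalization between arrays, and 5735 and 4718 in the deposited values. The near even balance of the other hours turned too: at the first, 5006 higher and 4910 lower became 5732 and 5848 from the processed signals and 3266 and 3311 without slide 1; at the ninth, 3967 and 3947 became 4583 and 4678 with separate fits, 2316 and 2460 without slide 2 and 3985 and 3991 with a variance trend. Between hours, no paired analysis was possible because the labels give no replicate numbers that pair animals of different hours. The study's methods say that controls were brothers of the treated mice; the labels do not give the litters. The 2 animals of an array are linked through the intraspot correlation, and limma on log ratios pairs them by array; at the fifth hour this added Rasd1 as higher and the dimmer Rnd3 probe as lower. Dim probes limit the precision, as 24572 of 56605 had a mean intensity under 50.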
